A study of Rattus norvegicus with 25 samples.

Results

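Skeletal muscle contracts when motor protein filaments slide past each other inside the sarcomere, and 38 genes for the parts, the calcium supply and the fuel of that machine were followed through rat tooth tissue. They were taken by symbol from the per-library count files, and 35 of the 38 have an entry among 16881 distinct symbols. Ryr1 (the calcium release channel), Neb and Ttn (the giant filament proteins nebulin and titin) have no entry and are not analysed here. Myot has 2 entries, and the one with the higher total was used. By role, the 35 genes divide into 13 of the thin filament and Z-disc, 11 of the thick filament and elastic scaffold, 5 of calcium handling and 6 of energy and oxygen supply.

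The study removed the maxillary first molar of Sprague–Dawley rats, let it dry and put it back into its socket, and then profiled RNA from the tooth with its periodontal ligament, the connective tissue that anchors a tooth in the jaw. Immediate replantation (IR) followed 5 min of drying and delayed replantation (DR) followed 60 min, each collected 3 or 7 days later with 6 libraries per group. A single library, NT, has control as its label for both treatment and time. All 25 libraries are labelled with the age of postnatal day 21, and the labels leave unsaid whether each library is a different animal, so any p-value here reflects only spread among libraries. QuantSeq, the method used, counts reads near the 3′ end of each transcript, so counts of different genes can be compared without correction for length. Depth ran from 5.04 to 8.81 M counts in the replanted libraries and was 8.55 M in NT, and 3 counts, the most that a listed 0 allows, correspond to 0.343 to 0.599 CPM, counts per 1000000 counts of the library, in the replanted libraries. That limit covers counting error only.

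A muscle fibre works as a relay. Depolarisation of the membrane opens calcium release from the sarcoplasmic reticulum, calcium binds troponin on the actin filament, myosin heads then pull, and a calcium pump ends the pull by refilling the store. Fast and slow fibres build this relay from separate gene sets, with their own troponins and myosins. Neither tooth nor ligament is itself a skeletal muscle, and the labels do not say how the tissue was trimmed.

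Every library held counts of this gene set, at levels that varied widely inside each group. In IR day 3 replicate 5, however, Ckm, Myh1 and Myh2 had 1 count each and Mb had 0. Summed over the 35 genes, NT stood at 1499 CPM. The lowest, median and highest sums were 45.9, 240.4 and 5132 CPM for IR day 3, 123, 3519 and 15288 for DR day 3, 88.8, 1677 and 3851 for IR day 7, and 95.2, 159 and 622 for DR day 7. The highest replanted library, DR day 3 replicate 5, exceeded the lowest, IR day 3 replicate 4, by 333 times. Inside groups the highest sum exceeded the lowest 112 times for IR day 3, 124 times for DR day 3, 43.4 times for IR day 7 and 6.54 times for DR day 7. DR day 7 was the group with the narrowest range, and none of its 6 libraries reached NT, whereas 5 DR day 3, 3 IR day 7 and 1 IR day 3 libraries lay above NT. The 5 libraries with the highest sums held 72.1% of all counts of these genes in the 24 replanted libraries. In such bulk tissue, more muscle cells and more muscle RNA per cell cannot be told apart.

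**Figure D1:**
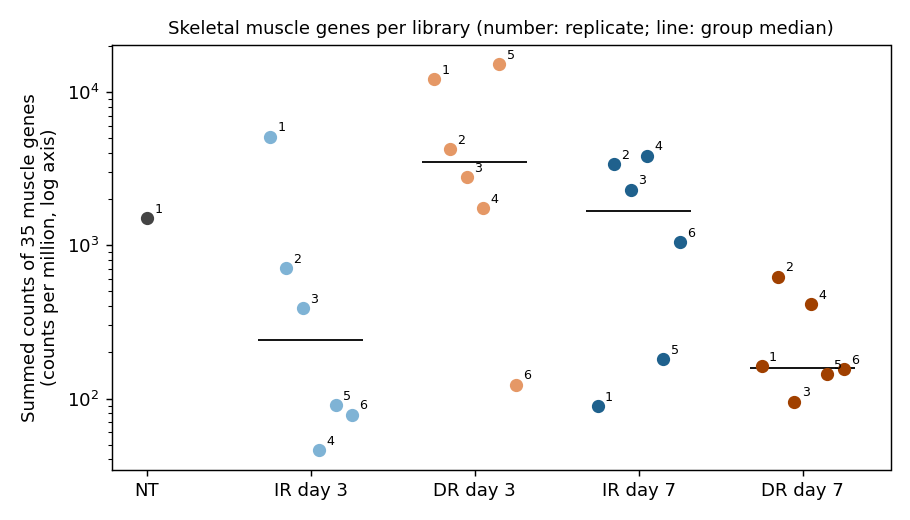
Summed CPM of the 35 skeletal muscle genes in each library on a log axis, by group, with replicate numbers beside the points and a line at each median of 6 libraries. IR day 3 and DR day 3 span 45.9 to 5132 and 123 to 15288 CPM, while DR day 7 stays between 95.2 and 622 CPM, below the 1499 CPM of NT.

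The extremes belonged to a few libraries across almost the whole gene set. IR day 3 replicate 1 was the highest of its group for 35 of 35 genes, and DR day 3 replicate 6 was the lowest of its group, ties included, for 32. The highest value of DR day 3 came from replicate 5 for 22 genes and from replicate 1 for 13. On the log2 CPM scale, the median SD of the 33 genes that passed the low-count filter was 2.46 for IR day 3, 2.49 for DR day 3, 2.08 for IR day 7 and 1.32 for DR day 7. The corresponding medians over all 11492 tested genes were 0.780, 0.587, 0.412 and 0.415, so muscle genes varied more between replicates than the typical gene in each of the 4 groups.

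**Figure D2:**
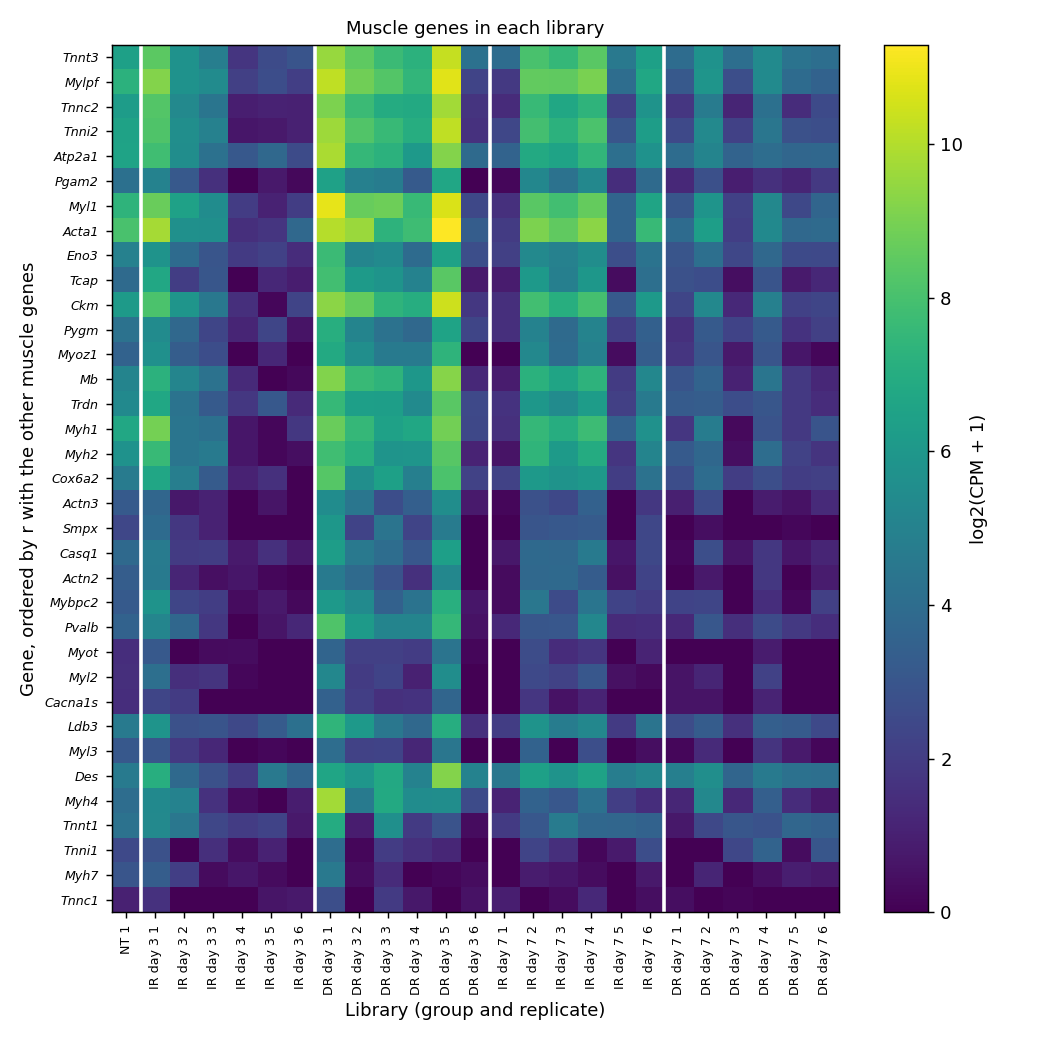
log2(CPM + 1) of each of the 35 genes in all 25 libraries, with genes ordered by their correlation with the rest of the set and the untested Myh7 and Tnnc1 last. Whole columns are bright or dark together, as in DR day 3 replicate 5 against replicate 6, while Tnnt1 and Tnni1 near the bottom depart from the columns.

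The thin filament was led by Acta1, the skeletal muscle actin on which myosin pulls. Acta1 measured 261 CPM in NT, and its lowest, median and highest values were 1.88, 30.6 and 879.9 CPM for IR day 3, 9.21, 497 and 2505 for DR day 3, 2.94, 280.3 and 642 for IR day 7 and 3.32, 14.3 and 78.3 for DR day 7. The groups overlapped, with 5 of 6 DR day 3 libraries above the IR day 3 median and 6 of 6 DR day 7 libraries below the IR day 7 median. Acta1 differed between DR and IR by a log2 fold change of 2.21 (SE 1.30) at day 3 and -3.46 (SE 1.37) at day 7.

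Tnnt3, the fast-fibre troponin T that ties the calcium sensor to tropomyosin, had the highest likeness to the rest of the set, as described further on. It stood at 83.5 CPM in NT, with 2.35, 16.8 and 343 CPM for IR day 3, 17.4, 283 and 1258 for DR day 3, 14.8, 133 and 341 for IR day 7 and 14.7, 17.5 and 53.1 for DR day 7, again as lowest, median and highest. All 6 DR day 3 libraries exceeded the IR day 3 median, and 3 exceeded every IR day 3 library. Its log2 fold change of DR over IR was 2.58 (SE 1.0) at day 3 and -2.52 (SE 1.0) at day 7. Tnnc2, the calcium-binding subunit of fast fibres, measured 75.7 CPM in NT, and in the replanted groups 0.939, 10.7 and 303 CPM for IR day 3, 2.23, 164 and 853 for DR day 3, 1.60, 79.1 and 192 for IR day 7 and 1.26, 3.62 and 25.2 for DR day 7. Of the DR day 3 libraries, 5 of 6 exceeded every DR day 7 library. Tnni2, the fast inhibitory troponin, ran from 0.626 to 1192 CPM over the 24 libraries. In the GRCr8 gene table Tnni2 overlaps the model of Ctsd, an abundant lysosomal protease gene, and Ctsd had an r of 0.231 with the muscle sum.

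The slow-fibre troponins did not follow their fast counterparts. Tnnt1, the slow troponin T, stood at 18.4 CPM in NT and at 0.690, 4.08 and 38.4 CPM for IR day 3, 0.297, 4.64 and 123 for DR day 3, 2.80, 11.4 and 24.9 for IR day 7 and 0.661, 6.64 and 12.4 for DR day 7. Its group medians differed far less than those of Tnnt3, and only 3 of 6 DR day 3 libraries exceeded the IR day 3 median. Both drying contrasts were smaller than those of Tnnt3, with 1.20 (SE 0.990) at day 3 and -0.86 (SE 0.997) at day 7, and whether they differ from those of Tnnt3 was not tested. Without the 4 libraries rich in lipid-secreting gland genes, named further on, the day 3 value of Tnnt1 was -2.19. DR day 3 replicates 2 and 5 show the divergence: with Tnnt3 at 359 and 1258 CPM, they held Tnnt1 at 0.887 and 6.48 CPM. By contrast, DR day 3 replicate 1 reached 123 CPM of Tnnt1 with 746 CPM of Tnnt3. Tnnc1, the slow and cardiac calcium sensor, was at 1.06 CPM in NT, at 0 in 11 of 24 replanted libraries and at most at 5.47 CPM, too low for the test. Tnni1, the slow inhibitory subunit, was at 0 in 6 libraries and reached 15.6 CPM.

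**Figure D3:**
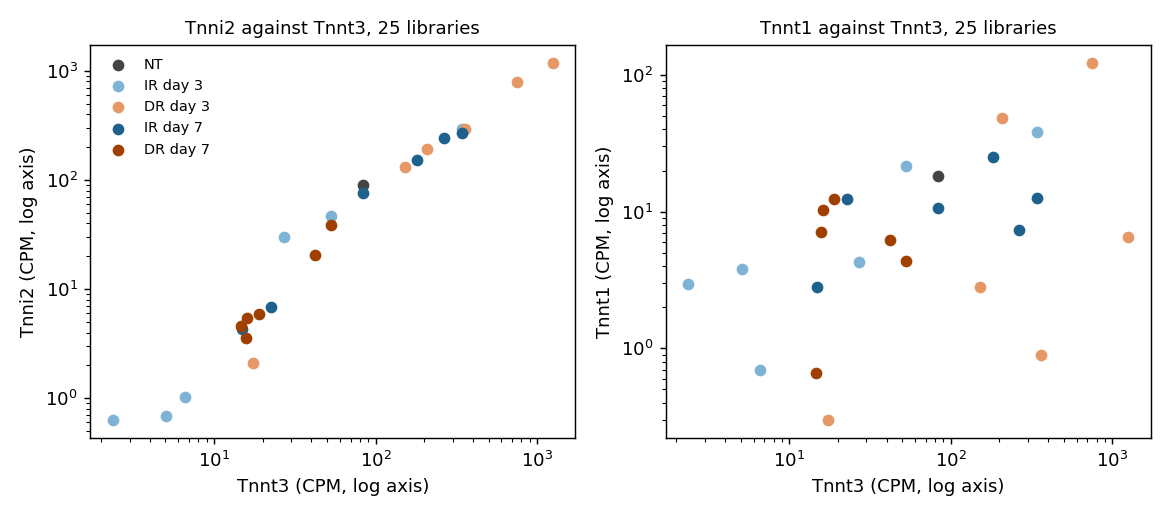
CPM of the fast troponin genes Tnni2 and Tnnt3 against each other (left) and of slow Tnnt1 against fast Tnnt3 (right) in all 25 libraries on log axes, coloured by group. The fast pair lines up over the whole range, while Tnnt1 takes values from 0.887 to 123 CPM among the 5 libraries with the highest Tnnt3.

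The Z-disc, which anchors the actin filaments, was represented by Actn2, Actn3, Myoz1, Tcap, Ldb3 and Myot. Tcap, the titin cap, reached 335 CPM and Ldb3, a Z-disc adaptor, 166 CPM. Myot, the gene of myotilin, was at 0 in 10 of 24 libraries and reached 19.1 CPM. Actn3, the alpha-actinin of fast fibres, differed between DR and IR by 3.02 (SE 1.16) at day 3 and -1.50 (SE 1.15) at day 7.

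Among the thick-filament genes, each of the 4 myosin heavy chain genes is linked to its own adult fibre type: Myh7 slow, Myh2 type 2A, Myh1 type 2X and Myh4 type 2B. Myh1 stood at 109.6 CPM in NT and at 0.137, 9.81 and 486 CPM for IR day 3, 4.46, 142 and 470.0 for DR day 3, 2.002, 89.8 and 212 for IR day 7 and 0.229, 4.53 and 25.4 for DR day 7. Among the 4 heavy chains it was the one whose highest value came from the immediate group, and no DR day 3 library exceeded IR day 3 replicate 1. Its drying contrast was 1.28 (SE 1.28) at day 3 and -3.81 (SE 1.42) at day 7. Myh2 measured 52.3 CPM in NT, and 0.137, 10.4 and 193 CPM for IR day 3, 1.19, 97.6 and 327 for DR day 3, 0.534, 51.1 and 168 for IR day 7 and 0.343, 6.01 and 15.6 for DR day 7, so that its median in DR day 3 lay above those of the other replanted groups while the ranges overlapped.

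Myh4, the fastest type, had a pattern of its own. It was at 15.4 CPM in NT and at 0, 1.48 and 40.1 CPM for IR day 3, 4.90, 44.7 and 849 for DR day 3, 1.20, 5.27 and 17.6 for IR day 7 and 0.700, 1.60 and 38.0 for DR day 7. Replicate 1 of DR day 3 held 849 CPM, the next highest library 114.6 CPM, and all 6 DR day 3 libraries exceeded the IR day 3 median. At day 3 its difference of 3.69 (SE 1.32) was the highest of the 33 genes tested. It was 1.94 without DR day 3 replicate 1, 4.34 without IR day 3 replicate 1 and 1.13 without the 4 libraries rich in lipid-secreting gland genes. At day 7 it was 0.27 (SE 1.23), and without DR day 7 replicate 2, which held 38.0 CPM, it turned to -1.20. With the replicate number as a block the day 7 value was -0.52. Myh7, the slow heavy chain, was at 6.83 CPM in NT, at 0 in 6 of 24 replanted libraries, and at most at 22.4 CPM, in DR day 3 replicate 1. It was too low for the test.

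As shares of the counts of these 4 genes, 16 libraries with at least 100 such counts could be described. The shares leave out perinatal Myh8 and embryonic Myh3, which reached 321 and 104.5 CPM in DR day 3. They describe counts of 4 genes and do not give the make-up of the fibres. Myh1 led in 10 of them, Myh4 in 4, Myh2 in 2 and Myh7 in 0. In NT, Myh1 took 59.5%, Myh2 28.4%, Myh4 8.38% and Myh7 3.71%. Myh1 led in IR day 7 as well, with 50.4% to 64.8% in the 5 libraries that could be read. DR day 3 was mixed, since Myh4 took 55.7% in replicate 1 and 44.0% in replicate 3 but 5.35% in replicate 5, and Myh7 took 0% to 1.47%. Myh4 also led in DR day 7 replicate 2 with 49.1% and in IR day 3 replicate 2 with 42.2%. With a minimum of 1000 counts, 10 libraries remained, of which Myh1 led in 8 and Myh4 in 2.

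**Figure D4:**
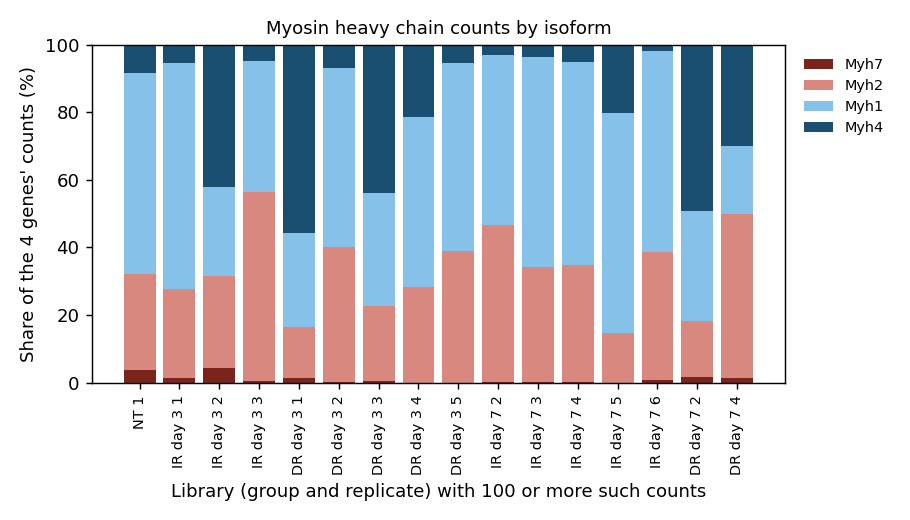
Percent of the counts of Myh1, Myh2, Myh4 and Myh7 that each gene took in the 16 libraries with 100 or more such counts. Myh1 is the widest band in 10 libraries, Myh4 in 4, with 55.7% in DR day 3 replicate 1, and Myh7 never exceeds 4.43%.

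Myh2, Myh1 and Myh4 follow one another on rat chromosome 10 in this order. Their transcripts are close relatives, and reads that 2 of them share cannot be assigned without the counting settings, which the sources used here do not give. Because neighbouring genes of the same cluster led in different libraries, the 250 bases before each start are shown, with those of Acta1, which had the highest mean level of the set, and of Tnnt1, the slow gene that departed from the rest. They come from RefSeq on build GRCr8, written on the gene's strand, at chr10:52355489-52355738 (+), chr10:52384662-52384911 (+), chr10:52421898-52422147 (+), chr19:68784195-68784444 (-) and chr1:78348785-78349034 (+). Capitals mark matches on either strand to 4 motifs. The first is CAGCTG, an E-box form that MyoD can bind. The second is CATTCC, the core bound by TEAD factors, the third the TATA box TATAAA, and the fourth the consensus of MEF2 by name.
Myh2: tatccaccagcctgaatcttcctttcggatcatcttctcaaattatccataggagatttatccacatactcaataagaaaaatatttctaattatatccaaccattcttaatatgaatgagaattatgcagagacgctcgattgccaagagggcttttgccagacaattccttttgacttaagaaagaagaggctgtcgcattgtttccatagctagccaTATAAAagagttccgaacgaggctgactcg
Myh1: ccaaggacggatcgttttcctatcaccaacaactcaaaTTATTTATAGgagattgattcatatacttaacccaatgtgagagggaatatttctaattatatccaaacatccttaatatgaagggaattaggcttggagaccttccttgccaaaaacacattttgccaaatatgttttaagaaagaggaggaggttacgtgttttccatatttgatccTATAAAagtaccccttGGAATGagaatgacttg
Myh4: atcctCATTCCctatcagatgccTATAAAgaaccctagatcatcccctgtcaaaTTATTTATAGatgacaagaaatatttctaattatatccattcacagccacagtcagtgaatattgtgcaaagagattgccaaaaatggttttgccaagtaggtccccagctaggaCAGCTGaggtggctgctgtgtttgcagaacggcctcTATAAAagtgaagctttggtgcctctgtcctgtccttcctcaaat
Acta1: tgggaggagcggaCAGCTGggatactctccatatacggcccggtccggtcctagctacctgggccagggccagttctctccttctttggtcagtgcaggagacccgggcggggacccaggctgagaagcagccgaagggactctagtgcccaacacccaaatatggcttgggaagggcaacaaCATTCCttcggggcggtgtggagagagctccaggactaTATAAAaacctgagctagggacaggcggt
Tnnt1: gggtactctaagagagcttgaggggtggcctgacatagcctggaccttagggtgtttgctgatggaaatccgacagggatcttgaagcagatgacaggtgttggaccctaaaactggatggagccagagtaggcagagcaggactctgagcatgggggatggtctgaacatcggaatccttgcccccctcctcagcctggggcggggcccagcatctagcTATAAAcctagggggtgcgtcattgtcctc

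Myh4 alone among the 32 promoters found for the 38 genes held all 4 kinds of match. Over windows of 250 bases before to 50 after the start, CAGCTG was present in 12 of the 32 (37.5%) against 15.1% of 27457 promoters of the same length. CATTCC was present in 9 (28.1% against 13.9%), TATAAA in 10 (31.2% against 14.3%) and the MEF2 consensus in 6 (18.8% against 3.37%). TATAAA and MEF2 matches overlapped in 2 of the 32, and 9 held none of the 4. Myh2, Myh1 and Acta1 each had a TATAAA match within 33 bases of the start, as did Tnnt1. These matches are descriptions of letters and say nothing of binding in these samples.

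The myosin light chains also come in fast and slow forms. Mylpf, the fast regulatory light chain, was among the most abundant, with 150.3 CPM in NT and 3.28, 24.3 and 584 CPM for IR day 3, 4.01, 379 and 1737 for DR day 3, 2.67, 234 and 516 for IR day 7 and 5.49, 12.5 and 58.9 for DR day 7. It differed by 2.43 (SE 1.24) between DR and IR at day 3 and by -3.36 (SE 1.30) at day 7. Myl1, the fast essential light chain, reached 1846 CPM in DR day 3 replicate 1. The slow light chains stayed low. Myl2 had 1.88 CPM in NT and 0, 1.03 and 16.3 CPM for IR day 3, 0, 3.41 and 46.0 for DR day 3, 0, 2.09 and 7.25 for IR day 7 and 0, 0.248 and 3.60 for DR day 7. Its relative Myl3 had 7.53 CPM in NT and 0, 0.747 and 6.93 CPM for IR day 3, 0, 3.78 and 20.4 for DR day 3, 0, 0.176 and 10.6 for IR day 7 and 0, 0.474 and 2.20 for DR day 7. Both were at 0 in 7 of the 24 replanted libraries, and both had their highest value in DR day 3 replicate 5.

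Des, the gene of desmin, an intermediate filament protein shared by skeletal, cardiac and smooth muscle, had an r of 0.836 with the rest of the set, lower than most. It stood at 24.5 CPM in NT and at 2.82, 12.6 and 135 CPM for IR day 3, 30.7, 79.6 and 579 for DR day 3, 21.2, 45.3 and 90.8 for IR day 7 and 11.8, 20.6 and 46.6 for DR day 7, and 14 of 24 replanted libraries exceeded NT. Every DR day 3 library exceeded the IR day 3 median, though only 1, replicate 5, exceeded the IR day 3 maximum. The contrast was 2.23 (SE 0.747) at day 3 and -1.15 (SE 0.727) at day 7. Smpx, a small costamere protein gene, was at 0 in 4 of 6 DR day 7 libraries and at most at 0.350 CPM there, against a median of 5.54 CPM in IR day 7 and 11.7 CPM in DR day 3. No DR day 7 library held more than 2 counts of Smpx, so its fitted differences against that group, given further on, depend on the small count that the fit adds and are no measured size. Mybpc2, the fast myosin-binding protein C, reached 138 CPM.

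Among the calcium genes, Atp2a1 encodes SERCA1, the pump that returns calcium to the store of fast fibres. It stood at 92.3 CPM in NT and at 5.01, 15.5 and 226 CPM for IR day 3, 14.1, 166 and 920.5 for DR day 3, 10.9, 72.6 and 170.3 for IR day 7 and 11.2, 13.7 and 33.6 for DR day 7. Even the libraries poorest in muscle kept Atp2a1 at 5.01 CPM or more. In the GRCr8 table its 3′ end overlaps that of Rabep2, a gene of endosome trafficking on the opposite strand, by 44 bases. Rabep2 itself ran from 9.49 to 541 CPM with an r of 0.956 to the muscle sum, so counts of the pair are uncertain unless counting used strand. The drying contrast of Atp2a1 was 2.51 (SE 0.870) at day 3 and -2.23 (SE 0.866) at day 7.

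Pvalb encodes parvalbumin, the soluble calcium buffer of the fastest fibres. It measured 10.7 CPM in NT and 0, 1.99 and 34.3 CPM for IR day 3, 0.446, 51.3 and 286 for DR day 3, 1.47, 4.44 and 35.9 for IR day 7 and 1.49, 2.24 and 7.36 for DR day 7. Of the DR day 3 libraries, 5 lay above the IR day 3 median and 3 above its maximum. Its difference at day 3 was 3.43 (SE 1.11), the smallest unadjusted p of the set there (0.00529), and -1.48 (SE 1.08) at day 7. Casq1, calsequestrin, the calcium store protein of fast fibres, had 13.4 CPM in NT and 0.690, 2.38 and 24.8 CPM for IR day 3, 0, 19.2 and 81.4 for DR day 3, 0.587, 8.85 and 23.1 for IR day 7 and 0.165, 0.943 and 5.61 for DR day 7. Trdn, triadin, which links calsequestrin to the release channel, ran from 1.55 to 333 CPM. Cacna1s, the voltage sensor, was at 0 in 11 of 24 libraries and peaked at 11.7 CPM.

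The energy genes supply the fuel of contraction. Ckm, muscle creatine kinase, which regenerates ATP beside the filaments, was at 71.1 CPM in NT and at 0.137, 12.9 and 273 CPM for IR day 3, 2.53, 277 and 1388 for DR day 3, 1.87, 101 and 245 for IR day 7 and 1.49, 4.09 and 37.3 for DR day 7. It differed by 2.83 (SE 1.32) between DR and IR at day 3 and by -3.14 (SE 1.34) at day 7. Mb, myoglobin, the oxygen store of fibres, measured 33.7 CPM in NT and 0, 9.85 and 151 CPM for IR day 3, 1.49, 176 and 611 for DR day 3, 0.801, 66.3 and 156 for IR day 7 and 1.14, 4.63 and 19.8 for DR day 7, and 4 of 6 DR day 3 libraries exceeded every IR day 3 library. Cox6a2, the muscle form of a cytochrome oxidase subunit, stood at 24.96 CPM in NT and at 0, 5.15 and 103 CPM for IR day 3, 3.71, 65.2 and 322 for DR day 3, 3.08, 36.5 and 67.6 for IR day 7 and 3.09, 4.40 and 14.7 for DR day 7. For all 3, 6 of 6 DR day 7 libraries lay below the IR day 7 median. Eno3, Pygm and Pgam2, enzymes of glycogen breakdown and glycolysis in muscle, peaked at 209, 133 and 100.3 CPM. Eno3 overlaps the model of Spag7 by 232 bases, and Spag7 had an r of 0.228 with the muscle sum.

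Whether longer drying altered these genes at day 3 was tested with edgeR's quasi-likelihood test over all 24 libraries. Of the 33 muscle genes tested, 0 passed a Benjamini-Hochberg adjusted p of 0.05, as did 0% of the 11492 genes. All 33 estimates were positive, from 1.07 for Tnni1 to 3.69 for Myh4 with a median of 2.28, against a median of -0.04 over all tested genes. Unadjusted, 17 of the 33 had p under 0.05 against 2.72% of all tested genes, and the adjusted p was 0.983 for each of the 33. Fitted on the 2 day 3 groups alone, 9 of 32 did, against 0.921% of all genes, with a median of 2.30. The 3 smallest p values belonged to Pvalb, Des and Atp2a1. DESeq2 called 0 of the 33, with 21 at an unadjusted p under 0.05 against 4.51% of all genes, and limma-voom with quality weights called 4 (Atp2a1, Cacna1s, Des and Tnnt3, all higher in DR) against 10.3% of all genes.

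Leaving out single libraries moved the number of muscle genes at an unadjusted p under 0.05 more than it moved the median at day 3. Without DR day 3 replicate 1 the median log2 fold change was 2.03 and the number 6 (1.90% of all genes), and Tnni1 turned to -0.24. Without DR day 3 replicate 5 the median was 1.82 and the number 5 (2.51%). Without IR day 3 replicates 2, 3, 4, 5 or 6 in turn the median lay between 2.06 and 2.31 and the number was 9, 10, 8, 8 or 10, against 1.65% to 3.30% of all genes, or 18.6% without replicate 6. Without IR day 3 replicate 1, by contrast, the median was 4.15 and the number 29 (4.73%). Genes of a lipid-secreting gland took 1.64% to 2.31% of the counts in DR day 3 replicates 1 to 3 and 2.70% in IR day 3 replicate 6, against 0.0029% to 0.561% in the other replanted libraries. Without those 4 libraries the muscle median was 2.04 and 31 of 33 estimates were positive, Tnnt1 and Tnni1 (-0.74) being the others. There 3 of 33 genes had an unadjusted p under 0.05, beside 7.14% of all genes. Nasal and salivary gland genes took 19.4% and 22.4% of the counts in IR day 3 replicates 3 and 4. The muscle sums of these 2 libraries were 390 and 45.9 CPM, beside a group median of 240.4 CPM. The part of these other tissues in the muscle difference was not tested.

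At day 7 the estimates pointed the other way. Again 0 of 33 genes were called by edgeR, beside 0% of all genes, and 20 of 33 had an unadjusted p under 0.05 against 1.79% of all genes. The median log2 fold change of DR over IR was -2.52, with 31 of 33 negative, against 0.00 over all genes. Myh4 and Tnni1 (0.90) were the 2 positive ones. Smpx -5.58 (SE 1.70), Trdn -2.59 (SE 0.955) and Myh1 had the smallest p values, and the adjusted p was 1 after rounding for each of the 33. DESeq2 and limma-voom called 0. At an unadjusted p under 0.05, DESeq2 had 22 of 33 against 2.64% of all genes, and limma-voom had 2 of 33 against 5.60%, near the share over all genes. Leaving out DR day 7 replicate 3 or IR day 7 replicate 2 lowered the edgeR number to 13 (1.57% of all genes) or 12 (1.33%). For 29 of the 35 genes at least 5 of the 6 DR day 7 libraries lay below the IR day 7 median, a count not made over all genes. The DR day 7 median was the lower one for 31 of the 35 genes and for 5965 of 15183 genes. The IR day 7 median was 1677 CPM for the sum, yet IR day 7 replicate 1, at 88.8 CPM, sat below all DR day 7 libraries and replicate 5, at 181 CPM, among them. No gene had groups free of overlap, where 0.0395% of 15183 genes did at day 3 and 0.0856% at day 7.

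**Figure D5:**
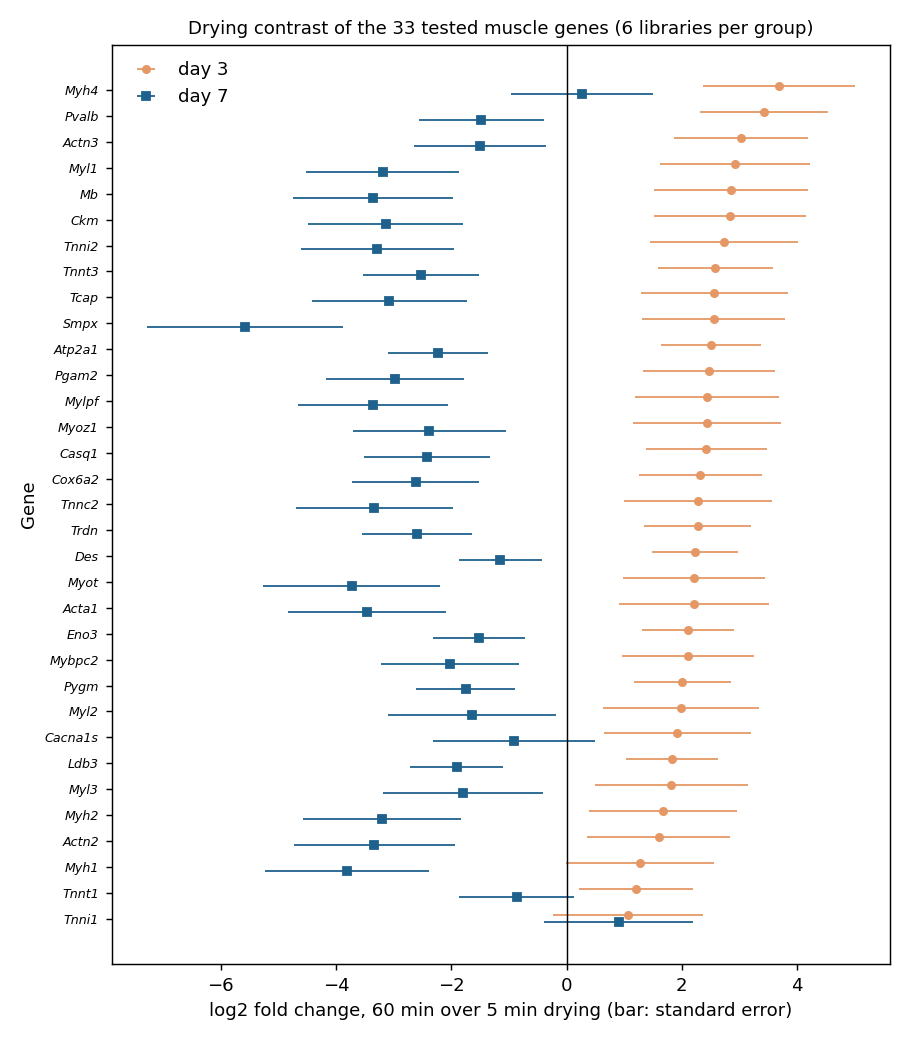
edgeR log2 fold change of 60 over 5 min of drying for each of the 33 tested genes at day 3 (circles) and day 7 (squares), with bars of 1 standard error and genes ordered by the day 3 value. All 33 day 3 estimates are above 0 and 31 of 33 day 7 estimates below 0, while no gene passed the adjusted threshold on either day.

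The change of the drying difference between days was tested as an interaction, the day 7 difference minus the day 3 difference, which uses the libraries of both contrasts above. All 33 estimates were negative with a median of -4.88, though Tnni1, at -0.16, turned positive in several alternatives, and 27 had an unadjusted p under 0.05 against 3.01% of all genes. None was called by edgeR, as with 0% of all genes. The smallest p values were those of Atp2a1 -4.73 (SE 1.23), Smpx -8.13 (SE 2.12) and Trdn -4.87 (SE 1.33). DESeq2 called 3 (Atp2a1, Tnnt3 and Trdn) beside 0.0957% of all genes, and limma-voom called 3 (Atp2a1, Des and Tnnt3) beside 4.54%.

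Between days, the delayed group carried the widest separation. DR day 7 against DR day 3 gave a median log2 fold change of -4.28 over the 33 genes, with 32 negative and Tnni1 at 0.14, and 32 had an unadjusted p under 0.05 against 22.5% of all genes. No muscle gene was called by edgeR, where 0.0087% of all genes were. The lowest adjusted p, 0.0788, was that of Atp2a1 at -4.17 (SE 0.939), followed by Smpx -7.54 (SE 1.75) and Trdn -4.31 (SE 1.02). For 25 of the 35 genes at least 5 of 6 DR day 3 libraries exceeded every DR day 7 library, and DR day 3 replicate 6 was the usual exception. That count was not made over all genes, so it has no share to be set against. The median was lower in DR day 7 for 32 of the 35 genes and for 6388 of 15183 genes. No gene had groups free of overlap, where 2.09% of 15183 genes did here and 0.586% between days in IR.

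That contrast stood near the threshold and depended on the fit. DESeq2 called 28 of 33 lower at day 7 (9.30% of all genes called) and limma-voom called 22 (28.6%). With edgeR, the number called was 28 (12.2% of all genes) without IR day 3 replicate 6, a library outside the contrast. Leaving it out changes the shared estimate of spread and also the low-count filter (11627 genes tested), and the cause of the change in calls was not tested. The number was 11 (3.18%) without DR day 3 replicate 4 and 6 (0.654%) without DR day 3 replicate 6. On the 2 DR groups alone it was 3 (0.398%). In the immediate group, day 7 against day 3 gave a median of 0.59 with 28 of 33 positive. There 0 genes were called beside 0.139% of all genes, and 0 had an unadjusted p under 0.05 against 20.4%. Without IR day 3 replicate 1 the median was 2.05 and 13 genes had an unadjusted p under 0.05, beside 27.8% of all genes. Pgam2 1.37 (SE 1.11), Tnnt3 1.10 (SE 0.958) and Des 0.77 (SE 0.720) had the smallest p values, and limma-voom called Des alone, beside 38.1% of all genes.

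Against the single NT library, which allows no test, the mean CPM of each group was set as a log2 ratio after adding 5 CPM to both. The ratio was above 1 for 25 of the 35 genes in DR day 3, where 8.55% of 15213 genes were, and below -1 for 0, where 4.61% were. The highest were Myh4 (3.18), Mb (2.81), Pvalb (2.76) and Tcap (2.74), and the median was 1.50. In DR day 7, 23 of 35 lay below -1 against 2.55% of all genes and 0 above 1 against 5.56%, with Myh1 at -3.22, Acta1 at -3.05 and Myl1 at -2.75. In IR day 3, 0 genes passed either limit, where 5.99% of all genes lay above and 4.21% below. In IR day 7, Mb (1.02) lay above 1 and Myh7 (-1.13) below -1, where 4.06% and 2.14% of all genes did. Taking group medians in place of means, IR day 3 had 26 of 35 below -1, against 7.25% of all genes. DR day 3 then had 14 above 1, against 7.83%. For 0 of the 35 genes did NT lie outside the range of the 24 replanted libraries, where among 15213 genes it lay above that range for 1032 and below it for 518.

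Across the 24 libraries most of these genes were high or low in the same libraries, although their proportions varied. Calcium genes took 5.90% to 25.6% of the counts of the set and energy genes 8.39% to 21.9%. The calcium shares of 25.6% and 23.9% came from IR day 3 replicates 5 and 4, whose muscle sums were only 90.8 and 45.9 CPM. Calcium counts include Atp2a1, which overlaps Rabep2. As a description, the log2 CPM of each of the 33 genes had a median r of 0.950 with the sum of the others, and 25 exceeded 0.9. The points share their library, its depth and its scaling. Tnnt3 was the highest at 0.984, followed by Mylpf at 0.982 and Tnnc2 at 0.981. The 13 fast-fibre genes had a median of 0.956, and the 4 tested slow-fibre genes one of 0.668. The slow genes were split, with the light chains Myl2 at 0.899 and Myl3 at 0.854 but the troponins Tnnt1 at 0.481 and Tnni1 at 0.356. The lowest fast gene was Myh4 at 0.821. Over the 11459 tested genes outside the set the median was 0.01, and 22 exceeded 0.9. The 10 genes most like the muscle sum were Hrc (0.975), Smtnl1, Nrap, Trim54, Rabep2, Xirp2, Ckmt2, Myh8, Habp2 and Lmod2 (0.943). Of these, Rabep2 overlaps Atp2a1 by 44 bases and Habp2 overlaps Nrap by 52 bases in the GRCr8 table.

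The balance of fast and slow genes also moved from library to library. Slow genes took 4.43% of the slow plus fast counts in NT (95% Wilson interval 3.99% to 4.91%). The replanted extremes were 0.329% in DR day 3 replicate 2 (0.252% to 0.428%) and 20.3% in DR day 7 replicate 3 (17.0% to 24.03%). DR day 7 held both low and high values, with 2.23% and 2.25% in replicates 1 and 2 and 17.1% and 18.8% in replicates 5 and 6. These shares rest on 7 to 1361 slow counts per replanted library, and the intervals cover counting error only. The share of DR day 3 replicate 6 rests on 7 slow counts, but those of DR day 7 replicates 3, 5 and 6 on 101, 92 and 129. In DR day 7 the highest counts were 79 for Tnnt1 and 55 for Tnni1, the tested slow genes least like the muscle sum. The other slow genes peaked there at 18 (Myl2), 11 (Myl3), 7 (Myh7) and 2 counts (Tnnc1). A high share is therefore no measure of slow fibres.

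Genes outside the set were read from lists of other muscle and neighbouring tissues. Of 42 further skeletal muscle genes, 35 have an entry and 30 were tested. At day 3, 28 of the 30 were positive with a median of 1.58, and 2 had an unadjusted p under 0.05 beside 2.72% of all genes. At day 7, 28 were negative with a median of -1.99, and 10 had an unadjusted p under 0.05 beside 1.79%. Between days in DR 25 of the 30 did, beside 22.5%, and in the interaction 21 did, beside 3.01%. None was called in any of the 5 contrasts, where 0% to 0.139% of all genes were. Xirp2, a repair-associated actin-binding protein of muscle, had the lowest, median and highest values of 0.297, 67.3 and 239 CPM in DR day 3 and 0.626, 3.01 and 13.7 CPM in DR day 7.

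Of 18 genes of satellite cells and newly forming fibres, 16 have an entry and 5 were tested, with 0 called and median log2 fold changes of 2.41 at day 3 and -1.77 at day 7. Myh8, the perinatal myosin heavy chain, had a median of 83.5 CPM and a highest of 321 CPM in DR day 3, against medians of 4.50 CPM (IR day 3), 10.5 CPM (IR day 7) and 1.44 CPM (DR day 7), and 1.18 CPM in NT. Myh3, the embryonic heavy chain, peaked at 104.5 CPM and Actc1, the actin of developing and cardiac muscle, at 328 CPM, both in DR day 3, while their medians there were 1.85 and 3.51 CPM. Myod1 and Myog, regulators that commit cells to muscle, peaked at 6.81 and 10.2 CPM in DR day 3, and in DR day 7 both were at 0 in every library. Other genes of the list differed from this: Cdh15, a cadherin of satellite cells and myoblasts, had medians of 1.48 CPM in DR day 3 and 2.65 CPM in DR day 7, and Pax7, a satellite cell regulator, of 0 and 0.200 CPM.

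Of 7 atrophy genes, 5 were tested and 0 called, with median log2 fold changes of 0.09 at day 3, 0.30 at day 7 and -0.33 between days in DR. The most abundant, Fbxo21 and Foxo1, had medians of 31.1 and 9.13 CPM in DR day 3 and 16.9 and 10.3 CPM in DR day 7. Of the ligases best known in muscle atrophy, Trim63 had a highest value of 36.6 CPM in DR day 3 and of 1.998 CPM in DR day 7, and Fbxo32 of 5.72 and 7.19 CPM.

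Genes of the other muscle types were read in the same way. Of 9 heart genes, 3 were tested and 0 called, with median log2 fold changes of -0.60 at day 3 and -0.33 at day 7. The most abundant were Nppb, a natriuretic peptide, and Tnnt2, cardiac troponin T. Nppb had medians of 6.42 and 13.3 CPM after 5 and 60 min of drying at day 3 and of 26.5 and 17.4 CPM at day 7, and Tnnt2 of 9.25 and 10.2 CPM and of 13.7 and 12.3 CPM. Nkx2-5 and Myl7 were at 0 counts in all 25 libraries, and Nppa had 1 count in total. Smooth muscle genes, among them Acta2 and Mylk, summed to values that differed by 4.82 times between the highest and lowest replanted library. The factor was 333 times for skeletal muscle and 250.5 times for tooth and ligament genes. Nasal and salivary gland genes ran from 0.0684% to 22.4% of counts in replanted libraries, and lipid-secreting gland genes from 0.0029% to 2.70%. Of the 9 smooth muscle genes tested, 0 were called in any contrast, and their median log2 fold changes were 0.48 at day 3 and 0.02 at day 7. Tendon genes summed to 0.211% of counts in NT and 0.0027% to 0.0585% in replanted libraries. Tooth and ligament genes such as Col1a1 and Bglap summed to 14.6% in NT and 0.0364% to 9.11% in replanted libraries. Their part in the muscle differences was not tested.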

How the data were processed

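RNA from tooth and periodontal ligament was counted in 25 QuantSeq libraries, 6 in each of the 4 replanted groups and 1 labelled NT. The authors deposited unnormalised counts, whole numbers of reads for each gene symbol. The submitters' processing notes name Bowtie2, edgeR and the builds mm10 and rn6, and no source used here gives their roles, the counting tool or the strand setting. For repeated symbols the entry with the highest total was kept. CPM are counts over the library total.

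The 24 replanted libraries were fitted in R 4.3.3 with edgeR 4.0.16 (TMM, filterByExpr, robust quasi-likelihood, 4 group means, 11492 genes), with Benjamini-Hochberg adjustment over all of them. DESeq2 1.42.0, limma 3.58.1 (voom with quality weights), other scalings, filters and replicate sets were alternatives, and the script was tested on simulated data. Named genes were 21 fixed muscle genes, the 3 of smallest p per contrast when none was called, and the 10 non-members most like the muscle sum. Other muscle lists were described by up to 3 called genes or their 2 most abundant genes. Tooth, tendon and gland lists were described by their sums, and adipocyte and oral epithelium lists are not described. Further muscle-list genes were chosen after their values were seen, among them Cacnb1, Fbp2, Nkx2-5, Myl7, Nppa, Myod1, Myog, Cdh15, Pax7, Trim63 and Fbxo32. Genes and lists were chosen with earlier results of these data known. Same-numbered DR and IR libraries had r over 0.1 in 6 of 6 pairs at day 7 (0.214 to 0.721) and in 1 of 6 at day 3. Between days it was 1 of 6 in IR and 0 of 6 in DR. At day 7, 3 of 6 DR libraries had their highest r with the IR library of their own number. Whether the numbers pair the libraries is therefore uncertain. File names number the day 7 libraries differently from the labels, which were used.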

Additional observations from a re-analysis of the deposited data

Results flagged for a closer look

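The named genes with an entry, the muscle sum and the slow share of slow plus fast counts gave 84 sets of 6 libraries, one per group. In each, the gap of the highest or lowest library to its neighbour was compared with the range of the set. A library stood apart in 8 sets, where chance gives about 1 in 20. DR day 3 replicate 6 was the low library in 7 of them. Its log2 CPM was 1.675 for Ckm, 2.293 for Mylpf, 1.512 for Tnnc2, 2.437 for Myh1, 0.727 for Myh2, -0.32 for Pvalb and 0.998 for Mb. These 7 values come from 1 library. DR day 7 replicate 2 was the high library for Atp2a1, at 4.932.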

How the results depend on the processing

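No muscle gene was called at day 3 or day 7 between DR and IR, between days in IR or in the interaction under RLE scaling, without ribosomal RNA entries, without the filter, with repeated symbols summed, without the 4 libraries rich in lipid-secreting gland genes, or with any 1 library left out (0 to 0 called). limma-voom with quality weights called 4 at day 3, 1 between days in IR and 3 in the interaction, and DESeq2 called 3 in the interaction. Between days in DR the first 5 of these settings also gave 0, DESeq2 called 28, limma-voom 22 and the fit on the 2 DR groups 3, and leaving out 1 library gave 0 to 28. With the replicate block the count was 0 in each of the 5 contrasts. The pairwise block fits used only the 2 groups compared. Between days in DR, the fit on those 2 groups without the block called 3. Between DR and IR at day 7, 15 of 27 genes had an unadjusted p under 0.05 with the block (7.26% of all genes). On the same 2 groups without the block, 20 of 27 did (3.67%). Over all 33 genes and every setting, the sign turned at least once for 2 genes at day 3, 2 at day 7, 11 between days in IR, 2 between days in DR and 2 in the interaction. These included Myh4 at day 7 (-0.59 with limma-voom, -0.52 with the replicate block, -1.20 to 0.76 with 1 library left out) and Tnnt1 (0.21 between days in DR with the block, and without the gland-rich libraries -2.19 at day 3, 1.07 between days in DR and 1.34 in the interaction). Tnni1 ran from -0.24 to 1.95 at day 3, -0.61 to 1.44 between days in DR and -1.05 to 1.14 in the interaction with 1 library left out, and Cacna1s from -1.76 to 0.14 at day 7. The cause was not tested.

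Against NT, adding 1 CPM put 7 of 35 genes lower in IR day 3, against 7.59% of all genes. In IR day 7 it put 2 higher and 3 lower, against 9.08% and 4.04%. Adding 10 CPM gave 0 higher and 0 lower in IR day 7, against 2.57% and 1.41%. Group medians gave 26 lower in IR day 3 (7.25% of all genes), and 14 higher (7.83%) and 2 lower (5.36%) in DR day 3. In IR day 7 they gave 0 higher (3.59%) and 2 lower (2.83%). Leaving out ribosomal RNA gave 4 higher in IR day 7 (6.56%). Sums per group and myosin shares moved by less than 1 SD among libraries. That limit was wide, with an SD of 2004 CPM beside a median of 240 CPM in IR day 3, so it shows no stability. Without ribosomal RNA entries the median sums were 285 CPM (IR day 3), 4170 (DR day 3), 2066 (IR day 7) and 210 CPM (DR day 7). With them they were 240, 3519, 1677 and 159 CPM. Depth limits Smpx, Tnnc1, Myh7, Myot and Cacna1s, which were near 3 counts in many libraries.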
